A study of Mus musculus with 2 samples.

Results

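Elane-high cells are labelled late neutrophil-primed progenitors within the sorted stem and progenitor cells of mouse bone marrow. A part of them also expressed monocyte genes, as given below. Elane-high cells were chosen by their own counts. A kept cell was a member when it held at least 5 UMIs (unique molecular identifiers, 1 per captured transcript) of Elane per 10000 UMIs and fewer than 2 of Dntt, a gene of lymphoid-primed cells. In all, 1019 of 12318 kept cells met this rule. Elane therefore describes the cells here and is no finding about them.

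The study profiled LSK cells, a bone marrow sort of lineage-negative cells that carry both Sca1 and c-Kit, by 10x Genomics 3' single-cell RNA sequencing. One library came from irradiated C57BL/6J mice, taken at day 15 after 5.0 Gy of total body irradiation, and 1 library from control mice of the same strain. Mice of both groups were 6 to 8 weeks old, and the labels do not say how many animals each library pooled. With 1 library per group there is no replicate check and no test, so no p-value is given. All intervals are exact 95% intervals, the limit given for a count of 0 is 3 counts of the total, and both cover counting error only.

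Neutrophil-primed progenitors lie between multipotent progenitors and the promyelocytes that fill the first granules of the neutrophil. Their granules, called azurophil granules, carry the serine proteases neutrophil elastase (Elane), proteinase 3 (Prtn3) and cathepsin G (Ctsg) together with myeloperoxidase (Mpo). The transcription factors C/EBP-alpha and PU.1 switch these genes on, Gfi1 and C/EBP-epsilon carry cells on toward neutrophils, and Irf8 holds cells on the path to monocytes.

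The start regions of the 4 azurophil genes are shown because their proteins fill the granules by which these cells are known, although Elane alone of the 4 entered the rule. Each sequence is the 250 bases before the RefSeq transcript start, read 5′ to 3′ on the gene's strand, from the RefSeq promoter table of build GRCm38.p6. Capitals mark AGGAAGT, a form of the purine-rich sequence that PU.1 and other ETS factors bind, searched on both strands.
Elane, chr10:79886062-79886311, plus strand: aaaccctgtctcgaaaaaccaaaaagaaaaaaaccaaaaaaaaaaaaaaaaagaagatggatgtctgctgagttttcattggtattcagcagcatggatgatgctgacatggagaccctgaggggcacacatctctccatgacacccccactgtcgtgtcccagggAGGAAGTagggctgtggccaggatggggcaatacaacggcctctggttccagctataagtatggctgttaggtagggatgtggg
Prtn3, chr10:79879417-79879666, plus strand: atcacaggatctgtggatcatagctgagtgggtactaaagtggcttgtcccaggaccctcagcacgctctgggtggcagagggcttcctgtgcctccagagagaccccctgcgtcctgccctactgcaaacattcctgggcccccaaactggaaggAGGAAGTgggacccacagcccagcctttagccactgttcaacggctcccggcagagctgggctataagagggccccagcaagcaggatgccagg
Mpo, chr11:87793534-87793783, plus strand: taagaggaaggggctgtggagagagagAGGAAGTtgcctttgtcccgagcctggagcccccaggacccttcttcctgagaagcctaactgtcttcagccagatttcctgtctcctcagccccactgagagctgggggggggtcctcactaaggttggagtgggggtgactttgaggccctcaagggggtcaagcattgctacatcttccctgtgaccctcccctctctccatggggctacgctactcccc
Ctsg, chr14:56102575-56102824, minus strand: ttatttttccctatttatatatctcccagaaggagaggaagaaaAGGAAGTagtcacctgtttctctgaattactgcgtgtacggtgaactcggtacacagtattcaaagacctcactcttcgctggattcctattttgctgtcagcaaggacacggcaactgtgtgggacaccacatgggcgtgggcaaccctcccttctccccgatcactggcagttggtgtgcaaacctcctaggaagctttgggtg
Each of the 4 windows held AGGAAGT once, beginning 84 bases before the start of Elane, 94 before Prtn3, 223 before Mpo and 206 before Ctsg. Of all 32851 windows of this length in the table, 7.69% held it. The window of Ms4a3, another marker of these cells, held 0 matches. A match describes the letters and is not a measured binding site.

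Elane-high cells were a far larger share of the irradiated library. They were 930 of 5128 kept irradiated cells, 18.1% (17.1 to 19.2), and 89 of 7190 kept control cells, 1.24% (0.995 to 1.52). The ratio of the shares was 14.7. Elane-high cells held 24.8% of the kept UMIs of the irradiated library and 2.80% of those of the control library. These are shares of a sort gate, so they count cells per sorted LSK cell and not per marrow. Ly6a, which encodes Sca1 of the gate, differed between the Elane-high cells of both libraries as given below, and its part in the share was not tested.

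The libraries differed in depth, with a median of 29671 UMIs per kept irradiated cell and 16084.5 per kept control cell. With each cell thinned to 5000 UMIs before the rule, the share was 17.8% of irradiated and 1.25% of control cells. At a limit of 10 Elane UMIs per 10000 it was 14.4% of irradiated and 0.974% of control cells, and at a limit of 20 it was 10.1% of irradiated and 0.682% of control cells. Cells just outside the limit, with 4 to 5 Elane UMIs per 10000, were 54 irradiated and 7 control cells. Cells just inside, with 5 to 6, were 35 irradiated and 3 control cells. Ctsg stood at 2300 CPM (UMIs per 1000000) in irradiated and 2230 CPM in control cells just outside, and at 2540 CPM in irradiated and 2180 CPM in control cells just inside.

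Elane UMIs were also found in cells chosen by markers of other lineages. Among cells with at least 1 Klf1 UMI per 10000, an erythroid marker, 39.4% of 322 irradiated cells held an Elane UMI at a median depth of 27199 UMIs, against 0 of 26 control cells at 16765, which allows up to 11.5%. Their summed Elane level was 17.1 CPM in irradiated cells. Among cells with at least 5 Dntt UMIs per 10000 it was 56.5 CPM in irradiated and 1.86 CPM in control cells. The rule's limit equals 500 CPM. It was reached by none of the erythroid marker cells, and by 2 of 566 irradiated and 0 of 1947 control Dntt-high cells. The part of free RNA in the share was not tested. In the next-lower class, cells under the Elane limit with at least 5 Mpo and 2 Ctsg UMIs per 10000, the share was 18.9% of irradiated cells and 6.68% of control cells.

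**Figure D1:**
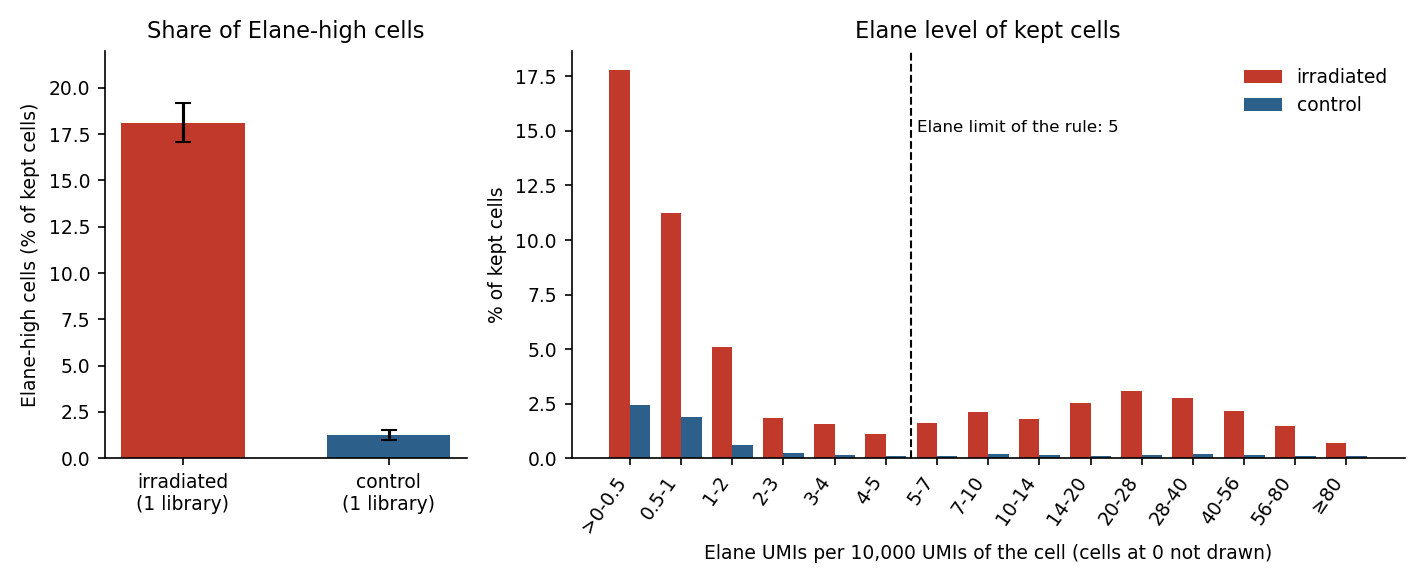
Left, Elane-high cells as a percentage of kept cells in the irradiated and control libraries, 1 library each, with exact 95% intervals of counting error (18.1% and 1.24%). Right, percentage of kept cells at each Elane level; the dashed line is the Elane limit of the rule, and irradiated cells exceed control cells in every bar above it.

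Once a cell was in the set, Elane itself was alike in both libraries. The median was 22.6 Elane UMIs per 10000 in irradiated members (quartiles 11.7 and 38.9, highest 205) and 21.7 in control members (11.1 and 40.5, highest 245). Depth was matched as well, with medians of 43519.5 UMIs per irradiated and 43513 per control member. The mitochondrial share had a median of 2.63% in irradiated and 2.86% in control members. Irradiated members were spread over the Elane ranges of 5 to 10, 10 to 20, 20 to 40, and 40 and above as 20.5%, 23.8%, 31.8% and 23.9%. Control members were spread as 21.3%, 23.6%, 29.2% and 25.8%. The comparison below is therefore one of cells of like depth and like Elane level, although 89 control cells set its precision.

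The markers given for these cells were detected in nearly all members. Mpo was detected in 99.7% of irradiated and 100% of control members, Ctsg in 99.8% of irradiated and 100% of control members, and Ms4a3 in 99.7% of irradiated and 96.6% of control members. Among the other cells Mpo was detected in 82.0% of irradiated and 53.1% of control cells, and Ctsg in 75.7% and 31.0%. Ms4a3 was detected in 50.5% of the other irradiated and 6.31% of the other control cells. Klf1, Pf4 and Cd79a, of the erythroid, megakaryocyte and B cell lists, were low, whereas monocyte genes were present, as given below. Some other genes of the same lists were detected in most members. Tfrc had a UMI in 81.1% of irradiated and 62.9% of control members. Cd9 had a UMI in 64.7% of irradiated and 59.6% of control members, and Cd79b in 69.8% of irradiated and 69.7% of control members. No member of either library reached 1 UMI per 10000 of Klf1 (erythroid), Pf4 (megakaryocyte) or Cd79a (B cell), and 0 of 930 irradiated cells allow up to 0.323% and 0 of 89 control cells up to 3.37%. Hlf, a stem cell factor, reached that level in 4 irradiated members and 1 control member. Flt3, a receptor of lymphoid-primed progenitors, reached it in 1.72% of irradiated and 3.37% of control members. Of all other cells, 16.8% in the irradiated library and 47.0% in the control library reached that Hlf level.

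Genes other than Elane set these cells apart from all other kept cells in both libraries, as a description of the chosen cells. Dmkn, a secreted protein of epithelia, had 91.2 CPM in irradiated and 51.9 CPM in control members, against 4.85 CPM in the other irradiated and 0.923 CPM in the other control cells. Trem3, a myeloid surface receptor, had 115 CPM in irradiated and 79.3 CPM in control members, against 11.6 CPM in the other irradiated and 1.71 CPM in the other control cells. Haptoglobin (Hp) had 306 CPM in irradiated and 263 CPM in control members, against 26.2 CPM in the other irradiated and 5.23 CPM in the other control cells. Ly6c2, which encodes the surface antigen Ly6C, had 662 CPM in irradiated and 737 CPM in control members, against 40.6 CPM in the other irradiated and 10.1 CPM in the other control cells. The others of the 12 highest were Elane, Ms4a3, Gda (guanine deaminase), Cldn15 (a claudin), Mtus1, and the myeloid surface receptor genes Fcgr3, Igsf6 and Clec5a. In both libraries each was lower in the other cells, and the other irradiated cells held more of them than the other control cells.

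**Figure D2:**
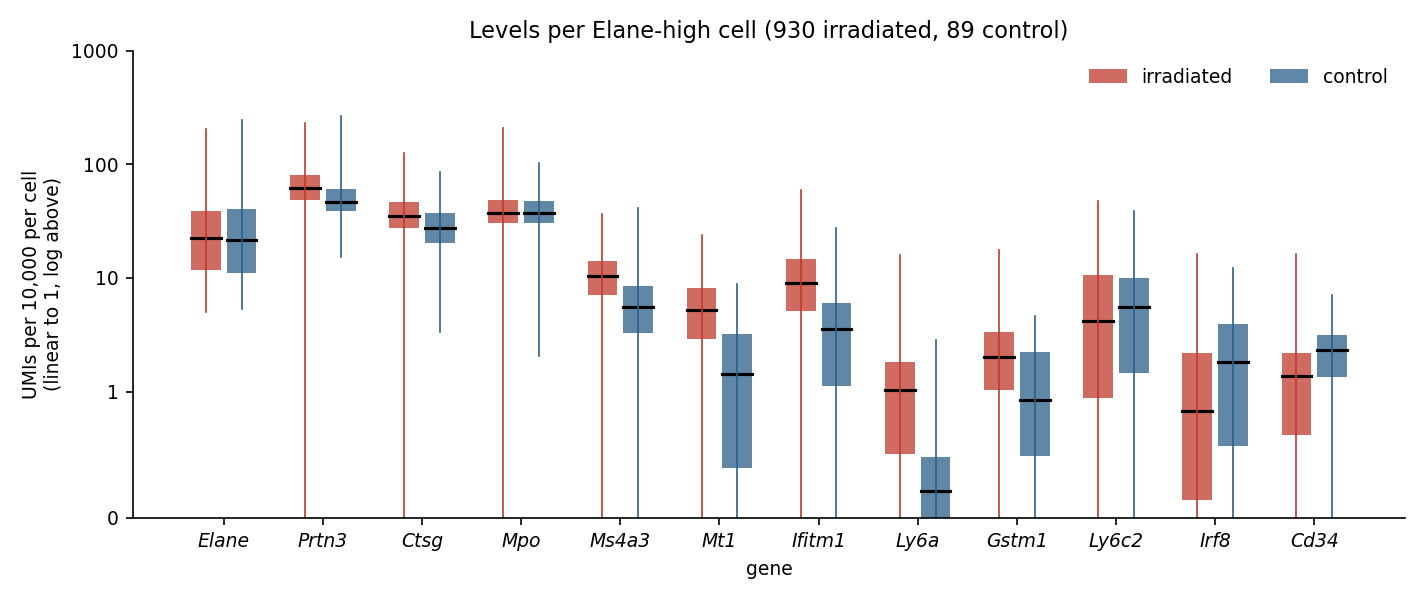
UMIs per 10000 in single Elane-high cells (linear to 1, log above) for 12 genes, 930 irradiated cells left of 89 control cells. Boxes span the quartiles, black lines are medians and thin lines run from the lowest to the highest cell; Elane and Mpo overlap, Ms4a3, Mt1, Ifitm1 and Ly6a are higher in irradiated cells, and Irf8 and Cd34 are lower.

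Across the transcriptome the Elane-high cells of both libraries were close. UMIs were summed over members, and the 4830 genes whose CPM averaged 20 or more over both libraries were listed. The median log2 ratio of irradiated over control was 0.00. Irradiated members exceeded control members by 2-fold or more in 16 genes (0.331%), and control members exceeded irradiated ones by as much in 15 (0.311%). At a ratio of 1.25, used below for gene lists, 296 genes (6.13%) were higher and 337 (6.98%) lower. For 6 of the 16 and 12 of the 15, 10 cells of a library held more than 50% of the UMIs. The other 10 higher and 3 lower genes lay on the same side in each of the 4 Elane ranges. The ranges split the same cells whose sums chose these genes, so this is a description and no check. Control members numbered 19 to 26 per range, and some intervals spanned 0, such as Klk8 at 40 and above (-1.75 to 0.35).

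Mt1, which encodes a metal-binding metallothionein (ENSMUSG00000031765, chromosome 8, 94179082 to 94180327, GRCm38), stood at 610 CPM in irradiated and 190 CPM in control members, a log2 ratio of 1.68 (1.58 to 1.79). Per cell the median was 5.21 UMIs per 10000 in irradiated members (quartiles 2.88 and 8.21) and 1.42 in control members (0.391 and 3.20). The quartile ranges overlapped narrowly, since the upper quartile of control members passed the lower one of irradiated members. Mt2, its neighbour gene and partner, held 466 UMIs in irradiated and 0 in control members, which is at least 14.8-fold higher against a floor of 3 UMIs. Mt1 was also higher outside these cells, at 202 CPM in all other irradiated and 14.2 CPM in all other control cells. In cells with at least 5 Dntt UMIs per 10000, it stood at 51.5 CPM in irradiated and 5.84 CPM in control cells, and the part of free RNA was not tested. In the erythroid marker cells it stood at 986 CPM in irradiated and 335 CPM in control cells, so the higher Mt1 level was not particular to Elane-high cells.

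Ms4a3, a membrane protein gene that marks granulocyte and monocyte progenitors (ENSMUSG00000024681, chromosome 19, 11629496 to 11640851), stood at 1131 CPM in irradiated and 634 CPM in control members, a log2 ratio of 0.84 (0.78 to 0.89). The median was 10.4 UMIs per 10000 in irradiated cells (quartiles 7.10 and 14.2) and 5.50 in control cells (3.29 and 8.56). Its gap narrowed with Elane. The log2 ratio was 1.15 at 5 to 10 Elane UMIs per 10000, 1.35 at 10 to 20, 0.77 at 20 to 40, and 0.39 at 40 and above. In the class under the Elane limit Ms4a3 was at 334 CPM in irradiated and 35.6 CPM in control cells, and in Dntt-high cells at 27.4 CPM in irradiated and 0.837 CPM in control cells.

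The granule protease genes differed little. Prtn3 stood at 6616 CPM in irradiated and 5266 CPM in control members (log2 0.33, 0.31 to 0.35) and Ctsg at 3757 CPM in irradiated and 2976 CPM in control members (0.34, 0.31 to 0.36). Mpo was level, at 3891 CPM in irradiated and 3893 CPM in control members (-0.00, -0.03 to 0.02), and so was Elane at 2796 CPM in irradiated and 2934 CPM in control members (-0.07). Of all listed genes 6.13% were higher and 6.98% lower at the 1.25 ratio. All 15 azurophil granule genes were listed, with a median log2 ratio of 0.06. At the 1.25 ratio 4 were higher, namely Prtn3, Ctsg, the granule proteoglycan Srgn (1669 CPM in irradiated, 1270 CPM in control members) and the tetraspanin Cd63 (154 CPM in irradiated, 123 CPM in control members, with 56.6% of the control UMIs in 10 cells). Among the lower ones was lysozyme (Lyz2, 158 CPM in irradiated, 326 CPM in control members), with 54.4% of the control Lyz2 UMIs in 10 cells. The start-region motif shown above was held by Prtn3 and Ctsg, which were modestly higher, and by Mpo, which was level. Elane held it too, but Elane chose the cells, so its level is no finding. A link of the motif to these ratios was not tested.

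Of 18 granulocyte progenitor genes, all listed, 6 were higher and 3 lower at the 1.25 ratio, with a median log2 ratio of 0.20. Of all listed genes 6.13% were higher and 6.98% lower. Gstm1, a glutathione transferase, stood at 231 CPM in irradiated and 126 CPM in control members (log2 0.87). Trem3 stood at 115 CPM in irradiated and 79.3 CPM in control members (0.54), the Fc receptor gene Fcgr3 at 91.9 CPM in irradiated and 63.3 CPM in control members, and Plac8, a small cysteine-rich protein of myeloid cells, at 5827 CPM in irradiated and 4317 CPM in control members (0.43). On the lower side were Cd52, a surface glycoprotein (214 CPM in irradiated, 322 CPM in control members), the signal-inhibitory receptor Sirpa (24.6 CPM in irradiated, 31.3 CPM in control members), and the mast cell protease gene Cpa3 (15.2 CPM in irradiated, 29.5 CPM in control members), 10 control cells holding 94.7% of the UMIs of Cpa3.

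Late neutrophil genes went with very few cells. Cells with at least 20 UMIs per 10000 of Ltf, Camp, Ngp, S100a8 and S100a9 together numbered 7 of 930 irradiated members (0.753%) and 4 of 89 control members (4.49%). S100a8 stood at 90.2 CPM in irradiated and 835 CPM in control members, S100a9 at 33.8 CPM in irradiated and 676 CPM in control members, and Camp at 11.5 CPM in irradiated and 270 CPM in control members. Without those 11 cells S100a8 was at 26.3 CPM in irradiated and 28.8 CPM in control members and Camp at 0.223 CPM in irradiated and 1.06 CPM in control members. The low values of these genes in irradiated members thus rested on 4 control cells. Lcn2, which encodes the granule protein lipocalin 2, went the other way at 90.9 CPM in irradiated and 20.9 CPM in control members, although 10 control cells held 56.8% of its UMIs there. Pglyrp1, a peptidoglycan-binding granule protein gene, stood at 89.3 CPM in irradiated and 53.5 CPM in control members, and 10 control cells held 60.4% of its UMIs there.

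**Figure D3:**
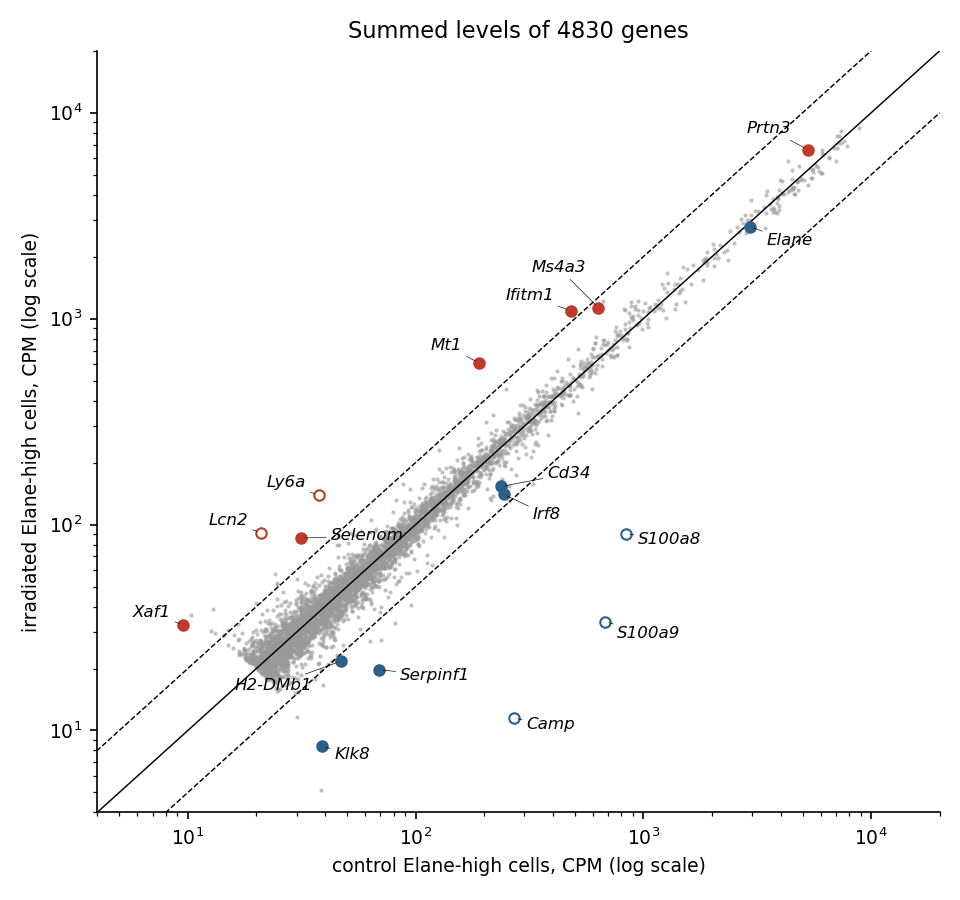
Summed CPM of 4830 genes in irradiated (vertical) and control (horizontal) Elane-high cells, both on log scales; the solid line marks equal levels and the dashed lines a ratio of 2. Named genes are red when higher and blue when lower in irradiated cells, and open circles are genes with more than 50% of a library's UMIs in 10 cells; most genes lie near the solid line.

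Interferon response genes were higher in irradiated Elane-high cells. Of 33 list members 31 had a higher CPM in the irradiated and 2 in the control members. No share of all genes stands beside that count. With no filter on the mean, 3536 of all genes passed 2-fold higher and 1323 passed 2-fold lower. The 20 CPM minimum was passed by 15 and missed by 18. Since a gene could pass through its irradiated level alone, the counts among the 15 describe those genes alone. Among the 15, 10 were higher at the 1.25 ratio beside 6.13% of all listed genes, none was lower, and the median log2 ratio was 0.54 beside 0.00 for all listed genes. The 3 that passed 2-fold were Xaf1, a pro-apoptotic interferon target (32.5 CPM in irradiated, 9.56 CPM in control members), Ifitm1, a membrane protein that blocks viral entry, and Irgm1, an immunity-related GTPase (29.1 CPM in irradiated, 14.5 CPM in control members). Below the minimum, the antiviral regulator Irf7 stood at 21.9 CPM in irradiated and 4.65 CPM in control members, Isg15 at 19.8 CPM in irradiated and 3.36 CPM in control members, and Oasl2, another antiviral gene, at 24.4 CPM in irradiated and 6.72 CPM in control members. Oas2, an oligoadenylate synthetase gene, held 174 UMIs in irradiated and 0 in control members, at least 5.53-fold higher. Outside the set, Xaf1 stood at 47.8 CPM in the other irradiated and 27.8 CPM in the other control cells. Irgm1 stood there at 48.3 CPM in irradiated and 27.5 CPM in control cells. The higher levels of Xaf1 and Irgm1 were thus not particular to Elane-high cells.

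Ifitm1 (chromosome 7, 140967221 to 140969825) stood at 1093 CPM in irradiated and 479 CPM in control members, a log2 ratio of 1.19 (1.12 to 1.26). Its median was 9.11 UMIs per 10000 in irradiated cells (quartiles 5.10 and 14.8) and 3.56 in control cells (1.11 and 5.97). In irradiated members the summed level was 1250, 1170, 1070 and 882 CPM from the lowest to the highest Elane range. In control members it was 620, 678, 367 and 201 CPM, with log2 ratios of 1.01, 0.79, 1.54 and 2.13 in the same order. The class under the Elane limit had the same order, at 1130 CPM in irradiated and 814 CPM in control cells. Over all cells outside the set Ifitm1 stood at 850 CPM in irradiated and 946 CPM in control cells. Ifitm3, a close relative, stood at 1219 CPM in irradiated and 662 CPM in control members (0.88). Ifitm2 stood at 664 CPM in irradiated and 637 CPM in control members.

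The start region of Irgm1 is shown because it was the only one of the Xaf1, Ifitm1 and Irgm1 windows that held GAAANNGAA, the letters of a short interferon-response form searched on both strands. Capitals mark overlapping matches that begin 30 and 24 bases before the start. Of all windows 7.13% held a match, the Ctsg window among them.
Irgm1, chr11:48871421-48871670, minus strand: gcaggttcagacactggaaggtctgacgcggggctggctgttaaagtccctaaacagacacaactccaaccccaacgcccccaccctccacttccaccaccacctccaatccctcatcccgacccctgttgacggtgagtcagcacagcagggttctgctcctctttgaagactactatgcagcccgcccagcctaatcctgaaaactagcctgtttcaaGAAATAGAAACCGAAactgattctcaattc

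Among genes of the sort gate and the progenitor surface, 4 of 13 listed were higher and 1 was lower at the 1.25 ratio. Of all listed genes 6.13% were higher and 6.98% lower. Ly6a, the Sca1 gene, stood at 139 CPM in irradiated and 37.5 CPM in control members, a log2 ratio of 1.89 (1.65 to 2.14). It was detected in 91.2% of irradiated and 59.6% of control members, with a median of 1.03 UMIs per 10000 in irradiated and 0.212 in control members. The 10 highest control cells held 50.3% of its control UMIs, which kept it out of the rule for named genes, so it was named after its values were seen. It was higher in irradiated cells in each Elane range, with log2 ratios of 1.54, 1.77, 2.39 and 2.12. Outside the set Ly6a was higher too, at 243 CPM in the other irradiated and 159 CPM in the other control cells. Ly6a is itself an interferon-inducible gene. Cd34, a glycoprotein of early progenitors, was lower, at 153 CPM in irradiated and 237 CPM in control members (-0.63, -0.73 to -0.53). Kit, the receptor of the gate, stood at 57.8 CPM in irradiated and 70.0 CPM in control members. Cd34 and Kit were lower outside the set too. Cd34 stood at 256 CPM in the other irradiated and 373 CPM in the other control cells, and Kit at 78.7 CPM and 134 CPM.

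Ms4a3 and Gstm1 were higher with each step of Elane in both libraries, and Cebpe in the irradiated one. From the lowest to the highest range Ms4a3 stood at 755, 925, 1210 and 1600 CPM in irradiated members and at 339, 363, 710 and 1230 CPM in control members. Gstm1 stood at 114, 163, 265 and 370 CPM in irradiated members and at 68.0, 81.5, 122 and 255 CPM in control members. Cebpe was at 13.9, 25.9, 44.9 and 81.5 CPM in irradiated members, and at 19.4, 6.48, 31.6 and 103 CPM in control members. Ms4a3 and Gstm1 were thus higher in irradiated than in control members in each range, while Cebpe was higher in irradiated members in the middle ranges and lower in the outer ones. Cd34 ran against Elane, at 210, 178, 130 and 105 CPM in irradiated members and 269, 308, 216 and 134 CPM in control members.

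**Figure D4:**
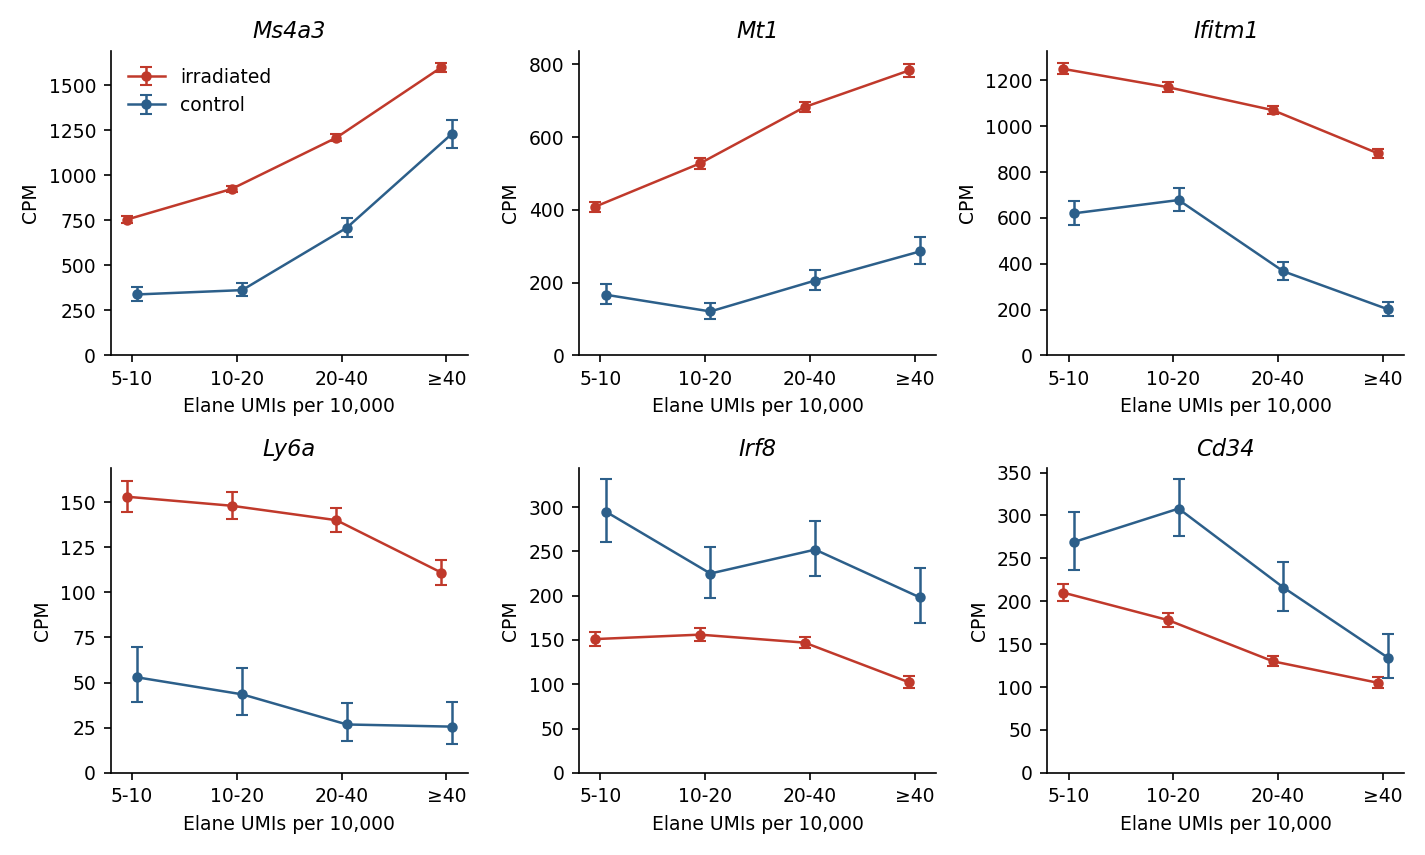
Summed CPM of 6 genes in Elane-high cells split by their Elane level, with exact 95% Poisson intervals; irradiated cells in red (191, 221, 296 and 222 cells from low to high Elane) and control cells in blue (19, 21, 26 and 23). Ms4a3, Mt1, Ifitm1 and Ly6a are higher, and Irf8 and Cd34 lower, in irradiated cells in every Elane range.

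Monocyte genes were lower in irradiated Elane-high cells. Of 16 list members 15 had a lower CPM, a count with no share of all genes beside it. Of the 12 that were listed 9 were lower at the 1.25 ratio, beside 6.98% of all listed genes, and none was higher. The median log2 ratio was -0.49. Irf8, the transcription factor that directs cells to monocytes and dendritic cells (chromosome 8, 120736358 to 120756694), stood at 140 CPM in irradiated and 243 CPM in control members, a log2 ratio of -0.79 (-0.89 to -0.69). The log2 ratio was -0.96, -0.53, -0.77 and -0.95 from the lowest to the highest Elane range. Csf1r, the receptor of macrophage colony-stimulating factor, stood at 23.0 CPM in irradiated and 34.4 CPM in control members, F13a1, a coagulation factor made by monocytes, at 121 CPM in irradiated and 169 CPM in control members, and Ly86, a partner of a Toll-like receptor homologue, at 65.2 CPM in irradiated and 113 CPM in control members. Ly6c2 (log2 -0.15) and the chemokine receptor gene Ccr2 (83.0 CPM in irradiated, 81.4 CPM in control members) differed less. Without each gene's 10 highest cells per library, a larger part of the control cells, the list's median was -0.07.

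The share of members with high Irf8 was lower in the irradiated library as well. At least 2 Irf8 UMIs per 10000 were found in 27.2% of irradiated members (24.4 to 30.2) and 47.2% of control members (36.5 to 58.1). Cells with a UMI of Cebpe, a factor of granulocyte maturation, and Irf8 under that level were 42.9% of irradiated and 34.8% of control members. Cells with Irf8 at that level and no Cebpe UMI were 22.7% of irradiated and 37.1% of control members. Cells with both were 4.52% of irradiated and 10.1% of control members, and the remainder held neither. Ly6c2 was at 349 CPM in the Cebpe cells and 1310 CPM in the Irf8 cells of the irradiated library, and at 426 CPM in the Cebpe cells and 1100 CPM in the Irf8 cells of the control library. F13a1 was at 42.0 CPM in the Cebpe cells and 274 CPM in the Irf8 cells of the irradiated library, against 36.8 CPM and 312 CPM in the same cells of the control library. In members with neither, Ly6c2 was at 565 CPM in irradiated and 323 CPM in control cells. Since Irf8 itself made the split, these values describe the classes and do not separate a lower level from a smaller share.

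Among 21 listed myeloid transcription factors 5 were higher and 3 lower at the 1.25 ratio, beside 6.13% and 6.98% of all listed genes. Their median log2 ratio was -0.02. Gfi1, a repressor that favours the neutrophil fate, stood at 29.6 CPM in irradiated and 17.3 CPM in control members (0.78, 0.42 to 1.15). Without the 5% of cells with the most UMIs per library, which left 843 irradiated and 37 control members, the log2 ratio of Gfi1 was 0.03. Cebpb, which drives granulopoiesis under stress, stood at 235 CPM in irradiated and 155 CPM in control members (0.60). Cebpe stood closer, at 41.7 CPM in irradiated and 36.7 CPM in control members, and the PU.1 gene Spi1 was at 195 CPM in irradiated and 206 CPM in control members. The other higher ones were Xbp1, Stat3 and Id1. The lower ones were Irf8, the zinc-finger repressor gene Zeb2 (148 CPM in irradiated, 205 CPM in control members), and Klf4, with 72.4% of its control UMIs in 10 cells.

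Cytokine receptor genes were mixed, with a median log2 ratio of -0.26. At the 1.25 ratio 2 of 12 listed were higher and 3 lower, beside 6.13% and 6.98% of all listed genes. Csf3r, the receptor of granulocyte colony-stimulating factor, stood at 28.9 CPM in irradiated and 21.7 CPM in control members (0.41, 0.09 to 0.75). Csf2rb, the beta chain shared by the GM-CSF, IL-3 and IL-5 receptors, stood at 40.5 CPM in irradiated and 25.6 CPM in control members (0.66). Beside Csf1r, the lower ones were the marrow-retention receptor Cxcr4 (23.1 CPM in irradiated, 38.0 CPM in control members) and the IL-6 receptor gene Il6ra (18.4 CPM in irradiated, 23.8 CPM in control members).

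**Figure D5:**
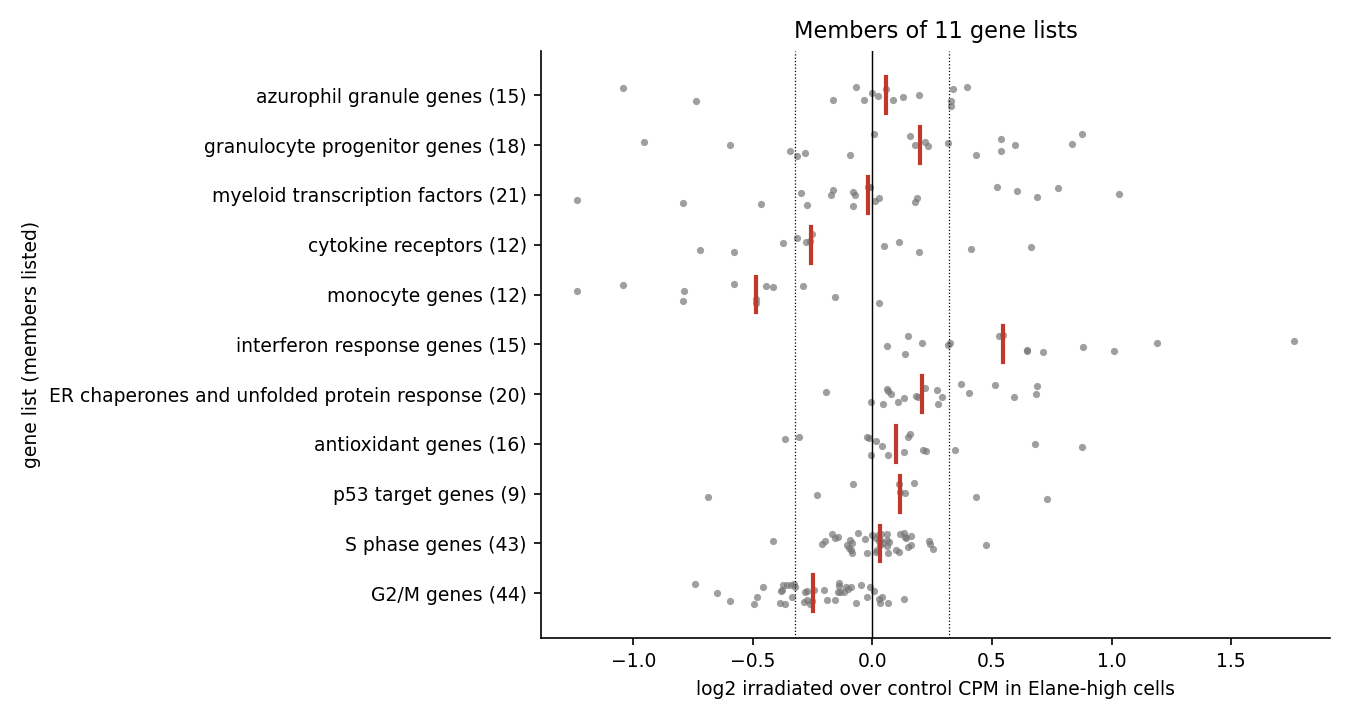
Log2 ratio of irradiated over control CPM in Elane-high cells for each listed member of 11 gene lists (points, jittered vertically), with the list median as a red bar and dotted lines at a ratio of 1.25. Interferon genes lie to the right of 0, and monocyte and G2/M genes mostly to the left.

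Few Elane-high cells were called G1 in either library, and the G2/M list had a lower median in irradiated members. After thinning to 5000 UMIs, G1 calls made up 10.4% of 923 irradiated and 10.2% of 88 control members, S calls 38.1% of irradiated and 35.2% of control members, and G2/M calls 51.5% of irradiated and 54.5% of control members. The intervals overlapped for each phase. The class under the Elane limit was alike, with G1 calls in 10.4% of irradiated and 15.2% of control cells. Of the cells in neither class, 30.7% in the irradiated library and 53.8% in the control library were in G1, while their Mki67 UMIs after thinning were in 38.5% of irradiated and 22.3% of control cells. None of 44 listed G2/M genes was higher at the 1.25 ratio and 16 were lower, beside 6.13% higher and 6.98% lower of all listed genes. The median log2 ratio of the G2/M genes was -0.25. Without the 5% of cells with the most UMIs per library that median was 0.04. That cut left 843 irradiated and 37 control members, a far larger loss among control members. It therefore does not tell which cells set the side of the G2/M genes. The mitotic ubiquitin-conjugating enzyme gene Ube2c stood at 154 CPM in irradiated and 258 CPM in control members. For Ube2c 10 control cells held 48.5% of the control UMIs, and it was detected in 79.6% of irradiated and 68.5% of control members. The topoisomerase Top2a stood at 244 CPM in irradiated and 344 CPM in control members. Of 43 S phase genes 1 was higher, the ribonucleotide reductase subunit Rrm2 at 166 CPM in irradiated and 119 CPM in control members, and 1 was lower, with a median of 0.03. Mki67 UMIs were found in 33.4% of irradiated and 40.9% of control members after thinning, and in 84.5% of irradiated and 83.1% of control members at full depth.

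Other genes with high ratios in irradiated members were Selenom, a selenoprotein of the endoplasmic reticulum (85.9 CPM in irradiated, 31.5 CPM in control members), the Foxo1 corepressor gene Fcor (30.5 CPM in irradiated, 12.7 CPM in control members), the centromere protein gene Cenpv (57.6 CPM in irradiated, 24.0 CPM in control members), Gda (51.9 CPM in irradiated, 24.5 CPM in control members), the kinase gene Rps6ka3 (41.8 CPM in irradiated, 19.9 CPM in control members) and the ion channel gene Tmem38b (50.8 CPM in irradiated, 24.5 CPM in control members). B4galt6, a galactosyltransferase gene, and the transferrin receptor gene Tfrc followed with log2 ratios of 0.99 and 0.95. Outside the set Cenpv stood at 61.85 CPM in irradiated and 19.3 CPM in control cells, Selenom at 22.6 and 10.3, and Tfrc at 52.35 and 25.95. Fcor, Gda and Tmem38b were higher in the other irradiated cells too. Rps6ka3 was near level there (43.0 CPM in irradiated, 41.1 CPM in control cells) and B4galt6 was lower (3.93 and 12.7). The remaining genes past 2-fold, named after their values were seen, were Osm (a cytokine), Emilin2, Id1 and AC160336.1, each with over 50% of its control UMIs in 10 cells.

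On the lower side, Klk8, a kallikrein protease gene, stood at 8.38 CPM in irradiated and 38.8 CPM in control members (-2.21, -2.49 to -1.92). Serpinf1, which encodes the secreted factor PEDF, stood at 19.7 CPM in irradiated and 69.0 CPM in control members (-1.81), and H2-DMb1, a chaperone of class II MHC loading, at 21.7 CPM in irradiated and 47.0 CPM in control members (-1.12). Klk8, Serpinf1 and H2-DMb1 were lower in the other irradiated cells too. Klk8 stood there at 19.3 CPM in irradiated and 82.8 CPM in control cells, and Serpinf1 at 10.6 CPM in irradiated and 41.5 CPM in control cells. H2-DMb1 stood there at 27.6 CPM in irradiated and 39.0 CPM in control cells. Between log2 ratios of -0.98 and -0.83 lay Rsrp1, Tespa1, Tpm4 (a tropomyosin), Tsc22d3 (a glucocorticoid-induced factor), Rgs10 (a G protein regulator), Smap2, Bmyc and the phosphatase gene Ptp4a3. All but Tpm4 were lower in the other irradiated cells too. Tpm4 stood there at 42.7 CPM in irradiated and 39.7 CPM in control cells. The genes past 2-fold lower that rested on 10 cells were Lgals3, S100a4, Rgs1, Ccl3, Ccl4, Ctsh and Lsp1, beside Lyz2, Klf4, Camp, S100a8 and S100a9 given above.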

How the data were processed

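LSK cells of 1 irradiated and 1 control library were compared. The authors deposited raw UMI counts per gene and barcode. Cell Ranger 2.1.1 and build mm10 are named per the submitters' processing notes, whereas software version 3.1.0 stands in the headers of the matrices. Barcodes were kept with at least 1000 UMIs, 500 genes and at most 10% mitochondrial UMIs: 5128 of 5596 irradiated and 7190 of 7686 control. The irradiated library held 165119247 and the control library 139274656 UMIs, and 16 barcodes occurred in both libraries, 2 of them irradiated members. Scrublet (scanpy 1.11.5) marked 18 irradiated and 0 control cells, so it has not worked, and none were removed. Counts were summed over members per library and scaled to CPM. Ratios carry exact intervals conditional on the gene's total, checked on simulated counts. TMM factors (edgeR 4.0.16) and DESeq2 1.42.0 size factors served only as alternative scalings. Coordinates are GENCODE M21 (GRCm38), matched for 31011 of 31053 gene identifiers. Named genes were the 4 given markers, the 12 highest and 12 lowest ratios, the 12 highest over other cells and up to 4 genes per list, leaving out genes with over 50% of a library's UMIs in 10 cells. Other genes in the text were chosen after their values were seen, and a few genes are not reported here. The members, the 32 lists and the rule were chosen with earlier results of these data known. A list count is a description beside the share of all 4830 genes.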

Additional observations from a re-analysis of the deposited data

Results flagged for a closer look

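Barcodes left out by the filter on depth and mitochondrial UMIs were not part of any comparison above, yet some met the Elane and Dntt rule. They were 73 of 468 in the irradiated library, 15.6% (12.4 to 19.2), and 11 of 496 in the control library, 2.22% (1.11 to 3.93). The 73 irradiated barcodes had a median mitochondrial share of 42.0% and a median depth of 1939 UMIs, and the 11 control barcodes 31.3% and 1195 UMIs. Whether they were damaged Elane-high cells or barcodes with free RNA was not tested. With no barcode filter at all, the Elane-high share was 17.9% of irradiated and 1.30% of control barcodes.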

How the results depend on the processing

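The difference of the Elane-high share, 16.9 points, was positive under all 11 alternatives, between 9.42 and 19.3 points. It moved beyond its interval with the Elane limit at 3 (19.3), 10 (13.4) or 20 (9.42) and with no Dntt UMI allowed (14.8). The counts of 16 genes higher and 15 lower were within 1.5 times under most of 20 alternatives. They moved to 26 and 34 without the 5% of cells with the most UMIs, which left 843 irradiated and 37 control members, to 61 and 67 with cells thinned to 5000 UMIs, where sums are smaller, to 68 and 63 at a mean of at least 5 CPM, to 3536 and 1323 with no filter on the mean, and to 61 and 81 at a ratio of 1.5. Of 25 named genes past 2-fold, 23 kept their sign under every alternative run. The exceptions were S100a8 (log2 2.05) and S100a9 (2.17), higher in irradiated members without the 10 cells with the most UMIs of the gene. Without the 5% of cells with the most UMIs, Ms4a3 was at 0.40, Gstm1 at 0.32 and Elane at -0.86. Of 31 list medians, 14 kept their sign throughout, those of interferon genes (0.39 to 0.86) and monocyte genes (-0.67 to -0.07) among them; the G2/M median reached 0.07. No paired analysis was possible because each group has 1 library. The 89 control members limit precision.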

Other observations

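Some genes of the endoplasmic reticulum were higher in irradiated Elane-high cells. Listed were 20 genes for chaperones of the endoplasmic reticulum and the unfolded protein response, with a median log2 ratio of 0.21. At the 1.25 ratio 6 were higher and none was lower, beside 6.13% and 6.98% of all listed genes, and 14 lay within it. Xbp1, the transcription factor that enlarges the secretory apparatus, stood at 92.8 CPM in irradiated and 57.6 CPM in control members (0.69, 0.49 to 0.89), and was 0.33 with cells thinned to 5000 UMIs. Herpud1, which helps to clear misfolded proteins, stood at 81.1 CPM in irradiated and 50.4 CPM in control members, the chaperone Hyou1 at 50.7 CPM in irradiated and 33.6 CPM in control members, and the translocon subunit Sec61a1 at 71.9 CPM in irradiated and 50.4 CPM in control members. Hspa5, the main chaperone of that compartment, stood at 1098 CPM in irradiated and 829 CPM in control members.

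Counts in this paragraph are at the 1.25 ratio, passed by 6.13% of all listed genes on the higher and 6.98% on the lower side. The medians of the lists in this paragraph lay between -0.32 and 0.13. Some lists with few listed genes lay outside that range, among them metallothionein and zinc genes (1.12, 2 listed) and lymphoid-primed genes (-0.59, 5 listed). The median was 0.12 for 9 listed p53 target genes (2 higher, 1 lower), 0.11 for 9 apoptosis regulators (0 higher, 1 lower), 0.10 for 16 antioxidant genes (3 higher, 1 lower) and 0.13 for 12 glycolysis enzymes (2 higher, 0 lower). The anti-apoptotic gene Bcl2 stood at 47.3 CPM in irradiated and 77.0 CPM in control members (-0.70), and Btg2, an anti-proliferative p53 target, at 27.6 CPM in irradiated and 44.4 CPM in control members (-0.69). Gadd45b, a growth arrest gene, stood at 27.4 CPM in irradiated and 16.5 CPM in control members (0.73), and the cell cycle inhibitor Cdkn1a had a log2 ratio of 0.43, with over 50% of its control UMIs in 10 cells. Pmaip1, a pro-apoptotic p53 target that was below the minimum, stood at 18.4 CPM in irradiated and 5.94 CPM in control members (1.63), with 65.2% of its control UMIs in 10 cells. Gclm, a subunit of the enzyme that starts glutathione synthesis, stood at 132 CPM in irradiated and 82.4 CPM in control members (0.68), and the glycolytic enzyme gene Eno1 at 313 CPM in irradiated and 205 CPM in control members (0.61). Mitochondrially encoded genes had a median of -0.13, beside the mitochondrial shares given above. The median was -0.02 for 7 NADPH oxidase genes (1 higher, 0 lower), 0.04 for 19 ribosome biogenesis genes (1 higher, 0 lower), 0.00 for 16 immediate early genes (2 higher, 3 lower) and -0.32 for 5 NF-kB and inflammation genes (0 higher, 2 lower).

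Marker lists of other lineages differed in level. The 16 monocyte genes had a per-cell median of 17.7 UMIs per 10000 in irradiated and 22.9 in control members, against 6.93 in other irradiated and 7.82 in other control cells. The 13 erythroid-primed genes summed to 150 CPM in irradiated and 99.5 CPM in control members, with Klf1, Car1 and Epor among those at 0 in control members. The 10 macrophage genes summed to 8.53 CPM in irradiated and 41.9 CPM in control members, and the highest irradiated cell held 3.18 UMIs per 10000 of them, against 93.0 in the highest control cell. The 15 lymphoid-primed genes summed to 554 CPM in irradiated and 733 CPM in control members, with Ighm, the immunoglobulin heavy chain gene, at 59.3 CPM in irradiated and 101 CPM in control members. Their part in the differences above was not tested.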
